A study of Homo sapiens with 9 samples.

Results

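Centromere and kinetochore genes were followed through sulforaphane treatment of GM12878, a human B-lymphoblastoid line made by Epstein-Barr virus transformation. The list held 43 genes, and a gene counted as measured where a transcript cluster of the array was annotated with that symbol and no other. This held for 32 genes. BIRC5 had 2 such clusters, and the brighter of them on average was used. The other 11 (CENPL, CENPN, CENPO, CENPP, CENPW, PMF1, ZWILCH, SKA2, SKA3, SPAG5 and KNSTRN) had no cluster under their symbol alone and are not analysed here. The array table held 22011 clusters in all.

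The cells were untreated cultures at 0 h, cultures given 10 µM D,L-sulforaphane for 8 h and cultures given the same dose for 24 h, with 3 cultures and 3 arrays per group. All were seeded at 900000 cells per ml, and all derive from a single cell line. The treatment protocol names a DMSO vehicle, whereas the 0 h cultures are described as untreated and no vehicle group was analysed here. Time in culture and treatment therefore cannot be told apart. Values are log2 signals from Affymetrix Human Exon 1.0 ST arrays, summarised by the authors with gene-level RMA, a method that combines the probes of a cluster after normalisation across arrays.

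The kinetochore is the protein plate that joins a chromosome to spindle microtubules in mitosis. It is built in layers: nucleosomes with the histone H3 variant CENP-A recruit a constitutive inner complex, the inner complex recruits the KMN network (KNL1, the MIS12 complex and the NDC80 complex), and the KMN network grips microtubules and carries the spindle checkpoint. The chromosomal passenger complex sits at the inner centromere and corrects faulty attachments. In cycling cells many of these genes are transcribed mainly in late S phase, G2 and mitosis. Their promoters often carry a cell cycle homology region (CHR), read by complexes of MuvB proteins with E2F, B-MYB or FOXM1 partners, together with CCAAT boxes, which bind NF-Y, or E2F sites.

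Promoter sequence was taken from RefSeq (GRCh38.p14), as a window of 250 bases before and 50 after each annotated start. The table matched 25 of the 32 measured genes, with 28 windows, and held none for KNL1, KNTC1, BIRC5, BUB3, MIS18A, CENPH and CENPM. Words were searched on both strands. The CHR was read as TTTGAA or its variant TTCGAA, and the CCAAT box by its own letters. An E2F site was read as the word TTGGCGC, as the related word TTCCCGC, as another form, TTGCCGC, or else as the form TTCGCGC. Motifs of different kinds overlapped in 1 of the 28 windows. The windows below run from 150 bases before to 15 bases after the start, 5′ to 3′ on the gene's strand, with matched words in capitals. CDCA8 (chr1:37692366-37692530, plus strand), CENPI (chrX:101100908-101101072, plus strand) and NDC80 (chr18:2571407-2571571, plus strand) are shown as the genes in the promoter table with the largest falls at 24 h, and they also stand for the passenger complex, the inner centromere and the KMN network. MAD1L1 (chr7:2232931-2233095, minus strand) is shown as the gene with the smallest change. CENPA (chr2:26785906-26786070, plus strand) was added after its motifs were seen.
CENPI: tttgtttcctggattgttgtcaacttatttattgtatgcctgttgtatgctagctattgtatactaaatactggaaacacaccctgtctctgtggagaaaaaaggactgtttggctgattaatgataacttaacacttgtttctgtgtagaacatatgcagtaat
CDCA8: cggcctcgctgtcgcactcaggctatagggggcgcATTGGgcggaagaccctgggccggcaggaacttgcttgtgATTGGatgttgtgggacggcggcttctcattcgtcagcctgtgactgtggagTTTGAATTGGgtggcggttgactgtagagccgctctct
NDC80: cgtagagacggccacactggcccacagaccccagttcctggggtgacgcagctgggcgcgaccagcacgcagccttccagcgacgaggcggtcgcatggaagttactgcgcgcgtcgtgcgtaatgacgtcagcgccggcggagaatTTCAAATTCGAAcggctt
MAD1L1: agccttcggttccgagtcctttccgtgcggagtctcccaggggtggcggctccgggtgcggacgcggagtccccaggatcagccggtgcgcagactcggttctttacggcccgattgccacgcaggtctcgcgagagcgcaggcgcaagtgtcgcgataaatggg
CENPA: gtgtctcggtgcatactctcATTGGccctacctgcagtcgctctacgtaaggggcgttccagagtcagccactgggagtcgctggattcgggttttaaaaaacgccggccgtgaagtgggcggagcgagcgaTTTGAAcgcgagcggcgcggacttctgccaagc

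In CDCA8 a CHR word at position -23 overlapped a reversed CCAAT word at -18, and further reversed CCAAT words lay at -75 and -115. NDC80 had back-to-back CHR words across its start, at -3 on the minus strand and at 4. CENPA had a CHR word at -18. Neither CENPI nor MAD1L1 held a searched word in the whole window. Such matches are letters in a window and not shown sites. Whether an annotated start is the one used in these cells was not tested. A window without a word, such as that of CENPI, therefore need not be the promoter in use.

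A CHR word was present in 13 of the 25 genes, in 50% of their windows, against 16.4% of all 35116 promoter windows in the table. A CCAAT word was present in 67.9% of the genes' windows and 34.6% of all windows, and an E2F word in 46.4% and 13%. Among the 10 genes with a promoter that fell at 24 h, 8 held a CHR word, namely CDCA8, NDC80, SKA1, ZWINT, HJURP, CENPA, OIP5 and INCENP, and CENPI and SPC24 did not. Of the 15 that were not called, 5 held a CHR word: SGO1, SPC25, CENPF, NUF2 and MAD2L1. The median log2 change at 24 h was -0.82 over the 13 genes with a CHR word and -0.15 over the 12 without. Without untreated replicate 2, described further on, these medians were -0.96 and -0.41, and 10 of the 14 genes then called lower held a CHR word. CCAAT words were present in 7 of the 10 fallen genes and in 9 of the 15 others. These counts are descriptions without a test.

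**Figure D1:**
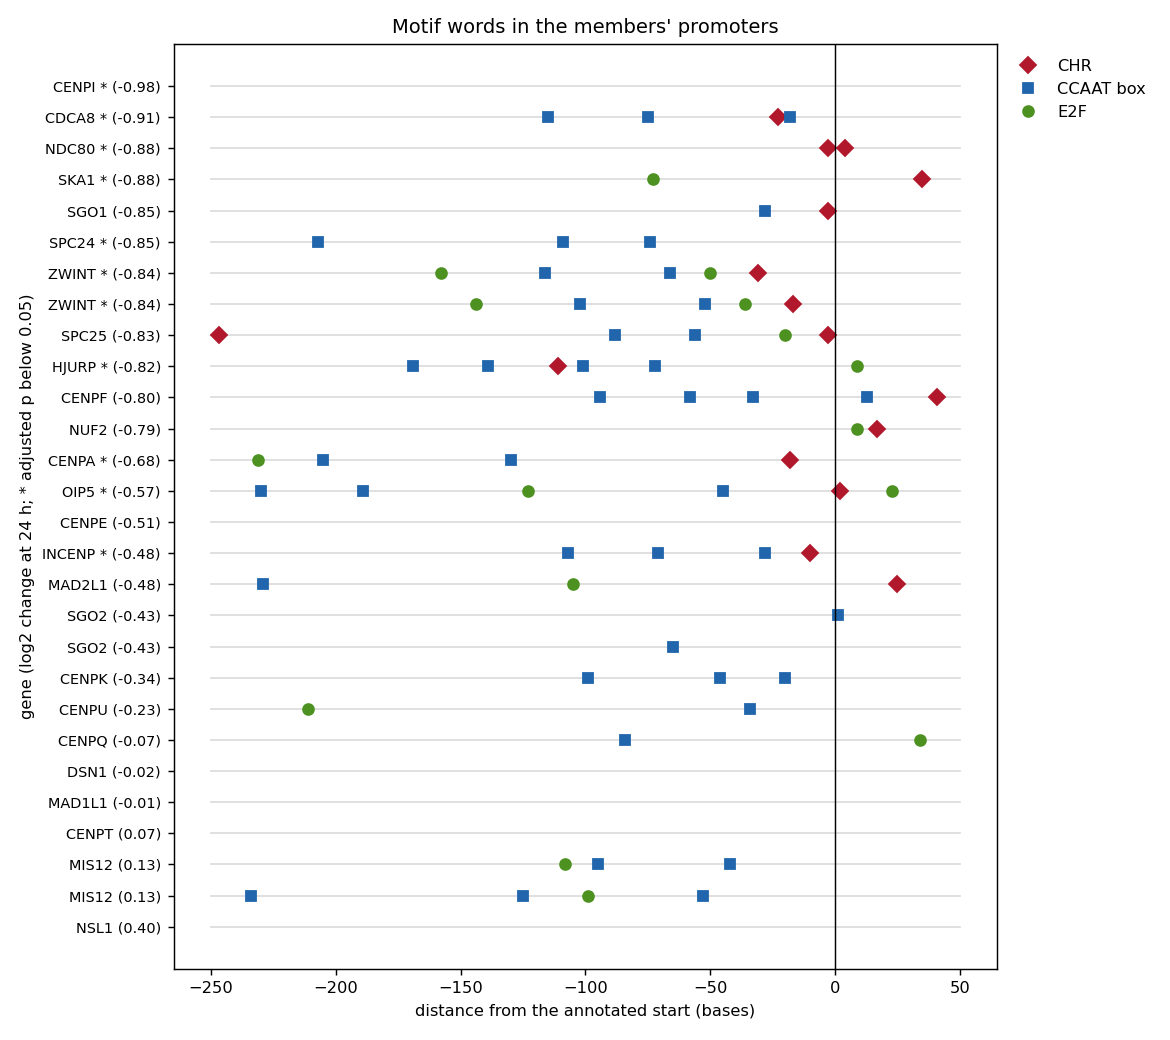
Positions of CHR, CCAAT and E2F words (symbols) in the 28 promoter windows of the 25 genes held by the table, as distance in bases from the annotated start (x axis). Genes run from the largest fall to the largest increase in log2 signal at 24 h (y axis, change in parentheses, asterisk for adjusted p below 0.05). CHR words lie in the upper part, and -0.48 was the smallest fall of a gene with one. This order is that of all arrays. Without untreated replicate 2, not drawn, CENPE (-0.83), SGO2 (-0.70), CENPK (-0.63) and CENPU (-0.50) had no CHR word, and INCENP (-0.50) had one.

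On the array level, the mean signal ranged from 7.97 to 8.14 over the 9 arrays. Untreated replicate 2 stood apart, with an upper quartile of 9.28 against 9.54 and 9.49 on untreated replicates 1 and 3. Clusters had a median standard deviation of 0.0912 at 8 h, 0.0919 at 24 h and 0.15 among untreated arrays. The 7 measured of 8 B-cell markers had mean signals from 9.72 (BLK) to 12.99 (MS4A1), and their average differed little between groups, at 11.36 to 11.39 on untreated arrays, 11.26 to 11.44 at 8 h and 11.37 to 11.45 at 24 h. Of these markers BLK was called higher at 24 h, by 0.44 (limma adjusted p = 0.038). The 7 T-cell markers ranged from 5.74 (CD3E) to 10.32 (LCK), and none of the 7 was called at either time. The array table used here has no detection calls, so a low signal could not be told from background.

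Signal after 24 h of sulforaphane was compared with that of untreated cultures. Of the 32 measured genes, 13 fell, 0 rose and 19 did not pass the test (limma over all clusters, Benjamini-Hochberg adjusted p below 0.05). Over all clusters, 0.791% were called lower and 0.831% higher, 1.62% in all. At an unadjusted p below 0.05, 20 of the 32 genes were lower, against 6.45% of all clusters. All 24 h arrays lay below all untreated arrays in 20 genes, against 8.75% of clusters. The 13 were CENPA, CENPI and CENPM of the inner centromere, HJURP and OIP5 of CENP-A deposition, KNL1, NDC80, SPC24 and ZWINT of the KMN network, SKA1, which binds microtubules, and all 3 measured passenger genes, INCENP, BIRC5 and CDCA8. The falls ranged from 1.39-fold (INCENP) to 2.14-fold (KNL1), and 11 were at least 1.5-fold. The median log2 change was -0.54 over the 32 genes and 0.02 over all clusters. RNA was taken from whole cultures, so fewer cells in mitosis and less RNA per cell cannot be told apart. Without untreated replicate 2, 16 genes were called lower, 11 of them among the 13. That fit called 314 of all clusters in either direction, against 357 with all arrays. Dropping untreated replicate 3 or 24 h replicate 2 left 1 gene (KNL1). Dropping 8 h replicate 1 or 24 h replicate 1 or 3 left 2, and dropping 8 h replicate 3 left 5. KNL1 was the only gene of the 13 that passed with each of the 9 arrays dropped in turn.

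In the inner centromere, 3 of 8 measured genes fell at 24 h and the median change was -0.28, or -0.54 without untreated replicate 2. With that array left out, 4 were called lower. CENPA, the histone that marks the centromere, had signals of 10.3, 9.99 and 10.27 on untreated arrays, 10.33, 10.27 and 10.22 at 8 h and 9.57, 9.4 and 9.56 at 24 h. The 24 h arrays lay below all others, and the 8 h arrays overlapped the untreated ones. CENPA fell by 0.68 ± 0.09 (SE, n = 3 per group) at 24 h, or 1.60-fold (limma adjusted p = 0.022). CENPI, a subunit of the CENP-H/I/K/M complex, had 9.65, 9.08 and 9.23 on untreated arrays, 9, 9.05 and 9.18 at 8 h and 8.15, 8.4 and 8.48 at 24 h. It fell by 0.98 ± 0.15, or 1.97-fold (limma adjusted p = 0.028). CENPM, of the same complex, had 9.6, 9.66 and 9.69 on untreated arrays, 9.37, 9.19 and 9.42 at 8 h and 8.86, 9.17 and 9.12 at 24 h. It fell by 0.60 ± 0.10 (limma adjusted p = 0.033), and its 8 h arrays lay between the untreated and the 24 h arrays. The 8 h change of -0.32 ± 0.10 did not pass (limma adjusted p = 0.18).

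Other subunits of the inner complex did not pass the test. CENPT, which links the inner complex to the NDC80 complex, had 9.02, 9.15 and 9.09 at 24 h, against 8.98, 9.04 and 9.02 on untreated arrays. Its change was 0.07 ± 0.06, with a 95% interval from -0.08 to 0.21. CENPQ had 6.9, 6.52 and 6.98 at 24 h, against 7.2, 6.37 and 7.04 on untreated arrays, and the groups overlapped. CENPH and CENPQ had changes of -0.10 ± 0.18 and -0.07 ± 0.21, and like that of CENPT their intervals exclude a 1.5-fold fall. The values of CENPH and CENPQ rested on untreated replicate 2, which was low for CENPH too, at 6.96 against 7.73 and 7.55. Without it CENPH changed by -0.33 ± 0.10 and CENPQ by -0.32 ± 0.13, neither passed, and the interval for CENPQ no longer excluded such a fall. CENPK (-0.34 ± 0.22) and CENPU (-0.23 ± 0.21) had intervals that reach such a fall. On untreated replicate 2, CENPK was 8.35, against 9.31 and 9.13 on untreated replicates 1 and 3, and CENPU was 7.78, against 8.66 and 8.57. Both were called lower at 24 h without that array.

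Of the 3 genes that load CENP-A onto chromatin after mitosis, 2 fell at 24 h. HJURP, the chaperone that carries CENP-A, had 10, 9.6 and 10.04 on untreated arrays, 9.7, 9.6 and 9.62 at 8 h and 8.94, 9.04 and 9.22 at 24 h. It fell by 0.82 ± 0.13, or 1.76-fold (limma adjusted p = 0.028). OIP5, the beta subunit of the Mis18 complex, had 9.06, 9.1 and 9.23 on untreated arrays, 8.97, 8.68 and 8.94 at 8 h and 8.51, 8.66 and 8.52 at 24 h. It fell by 0.57 ± 0.09 (limma adjusted p = 0.033), with the 8 h arrays between the other groups. The 8 h change of -0.26 ± 0.09 did not pass (limma adjusted p = 0.24). MIS18A, its partner in the complex, had 8.11, 8.24 and 8 at 24 h, against 8.38, 8.39 and 8.4 on untreated arrays. These groups did not overlap, but the change of -0.27 ± 0.07 did not pass (limma adjusted p = 0.11).

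**Figure D2:**
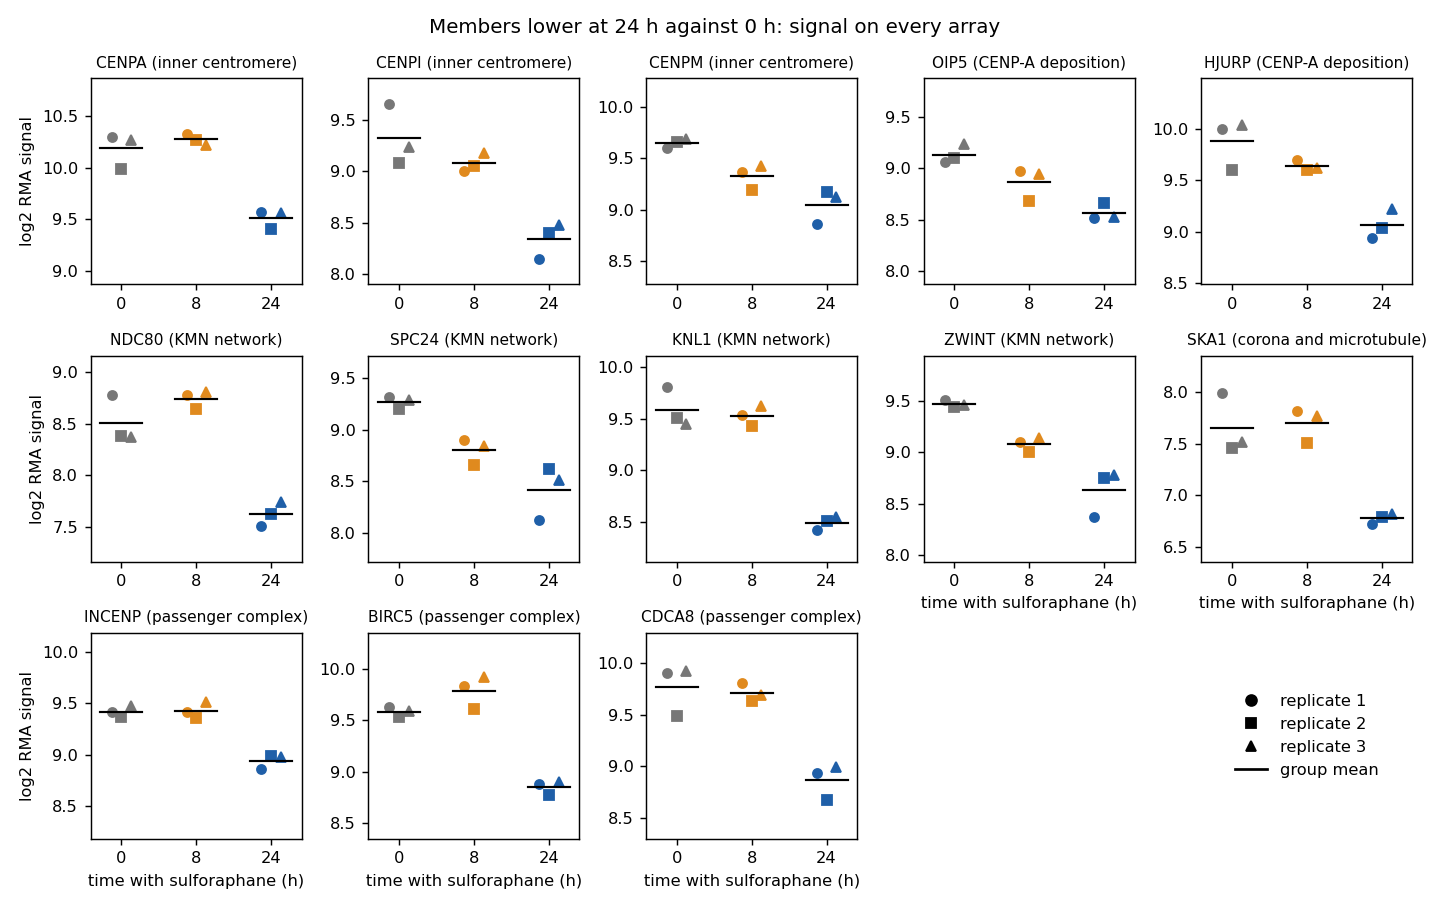
Log2 RMA signal (y axis, the same 2-unit span in each panel) on every array at 0, 8 and 24 h (x axis) for the 13 genes called lower at 24 h, with symbols for replicates and a line for the group mean. In each panel the 24 h arrays lie below the 8 h and the untreated arrays. In CENPM, OIP5, SPC24 and ZWINT the 8 h arrays lie between them, but no gene was called at 8 h. All 8 h arrays lie below all untreated arrays in 8.55% of clusters.

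Of the 9 measured genes of the KMN network 4 fell, and the median change was -0.83. Without untreated replicate 2, 5 were called lower and the median was -0.89. KNL1, the scaffold that recruits checkpoint proteins, had 9.81, 9.51 and 9.45 on untreated arrays, 9.54, 9.43 and 9.63 at 8 h and 8.42, 8.51 and 8.55 at 24 h. Its fall of 1.10 ± 0.10 was the largest of the 32 genes (limma adjusted p = 0.0060). ZWINT, which binds KNL1, had 9.51, 9.44 and 9.46 on untreated arrays, 9.1, 9 and 9.14 at 8 h and 8.37, 8.75 and 8.78 at 24 h. The fall in ZWINT was 1.79-fold, or -0.84 ± 0.11 on the log2 scale (limma adjusted p = 0.019). Its 8 h arrays lay between the other groups, although neither the 8 h change nor the difference of 24 h from 8 h passed, whereas KNL1 overlapped the untreated arrays at 8 h.

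The NDC80 complex, the main microtubule coupler, is a rod of 4 proteins, and all its genes were measured. NDC80 had 8.78, 8.38 and 8.37 on untreated arrays, 8.78, 8.64 and 8.81 at 8 h and 7.51, 7.62 and 7.74 at 24 h. It fell by 0.88 ± 0.12 at 24 h (limma adjusted p = 0.022). SPC24 had 9.32, 9.2 and 9.29 on untreated arrays, 8.9, 8.66 and 8.84 at 8 h and 8.12, 8.62 and 8.51 at 24 h, and fell by 0.85 ± 0.13 (limma adjusted p = 0.027). Their direct partners had changes of like size that did not pass: NUF2, the partner of NDC80, changed by -0.79 ± 0.20 (adjusted p = 0.10) and SPC25, the partner of SPC24, by -0.83 ± 0.29 (adjusted p = 0.18). Dropping untreated replicate 2 moved NUF2 past the threshold, at -1.06 ± 0.09 (adjusted p = 0.0072), but not SPC25 (adjusted p = 0.051). Untreated arrays spread widely in both, with 8.86, 7.98 and 8.68 for NUF2 and 8.46, 7.32 and 8.16 for SPC25. At 24 h NUF2 had 7.84, 7.63 and 7.67, all below the untreated arrays, and SPC25 had 7.33, 6.74 and 7.38, which overlapped them.

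The MIS12 complex, which joins the NDC80 complex and KNL1 to the inner centromere, gave no call among its 3 measured genes. DSN1 had 9.84, 9.81 and 9.87 at 24 h, against 9.97, 9.8 and 9.81 on untreated arrays, a change of -0.02 with a 95% interval from -0.22 to 0.18. The interval for NDC80 ran from -1.16 to -0.60 and that for KNL1 from -1.33 to -0.86, and both genes were called. That for SPC25, which was not called, ran from -1.49 to -0.17 and overlapped that of DSN1. Differences between genes were not tested. MIS12 changed by 0.13 ± 0.12, with an interval from -0.15 to 0.42. NSL1 had 10.57, 10.2 and 10.31 at 24 h, against 10.19, 9.54 and 10.17 on untreated arrays. It was the only measured gene with all 24 h arrays above the untreated ones, and its change of 0.40 ± 0.18 did not pass (limma adjusted p = 0.26). With untreated replicate 2 dropped it was 0.19 ± 0.11.

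Among corona and microtubule-binding factors, 1 of 4 measured genes fell. SKA1, a subunit of the complex that follows shrinking microtubule ends, had 7.99, 7.46 and 7.52 on untreated arrays, 7.82, 7.51 and 7.77 at 8 h and 6.72, 6.79 and 6.82 at 24 h. It fell by 0.88 ± 0.14, or 1.84-fold (limma adjusted p = 0.033). CENPF, a large coiled-coil protein of G2 and mitosis, changed by -0.80 ± 0.17 and the kinesin CENPE by -0.51 ± 0.27, and neither passed (limma adjusted p = 0.069 and 0.31). KNTC1, the ROD protein of the complex that brings dynein to kinetochores, had 9.14, 9.18 and 9.26 at 24 h, against 9.84, 9.42 and 9.52 on untreated arrays. It changed by -0.40 ± 0.12 (adjusted p = 0.15). The 24 h arrays lay below all untreated arrays for CENPF and KNTC1, and overlapped them for CENPE. When untreated replicate 2 was dropped, CENPF was called lower (adjusted p = 0.021), and CENPE stood at -0.83 ± 0.18 (adjusted p = 0.085).

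The checkpoint genes and the shugoshins, which protect cohesion at centromeres, gave no call. MAD1L1, the kinetochore receptor for MAD2, had 9.43, 9.48 and 9.5 at 24 h, against 9.48, 9.43 and 9.55 on untreated arrays, a change of -0.01 ± 0.06. BUB3, which docks on KNL1, had 11.04, 11.05 and 11.11 at 24 h, against 11.27, 11.13 and 11.19 on untreated arrays. It changed by -0.13 ± 0.08, with a 95% interval from -0.31 to 0.05. For MAD2L1, which encodes MAD2, the change was -0.48 ± 0.19 (adjusted p = 0.22), with 24 h arrays at 7.75, 7.64 and 7.78, below the untreated 8.26, 7.79 and 8.56. For SGO1 the 24 h arrays at 8, 7.71 and 7.98 lay below all untreated arrays, and for SGO2 they overlapped them. SGO1 changed by -0.85 ± 0.21 (adjusted p = 0.092) and SGO2 by -0.43 ± 0.22 (adjusted p = 0.30). On untreated replicate 2, SGO1 stood at 8.22, against 9.09 and 8.93 on untreated replicates 1 and 3, and was called lower without that array. SGO2 then stood at -0.70 ± 0.13 (adjusted p = 0.062).

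All 3 measured genes of the passenger complex fell. Their median change was -0.73, or -0.76 without untreated replicate 2, and all 3 were called lower in that fit too. Without untreated replicate 3 none of the 3 passed. With each of the 9 arrays dropped in turn, CDCA8 passed in 3 fits, INCENP in 4 and BIRC5 in 5. CDCA8, which encodes borealin, had 9.9, 9.49 and 9.92 on untreated arrays, 9.81, 9.63 and 9.69 at 8 h and 8.93, 8.67 and 8.99 at 24 h. It fell by 0.91 ± 0.13, or 1.88-fold (limma adjusted p = 0.026). BIRC5, which encodes survivin, had 9.63, 9.53 and 9.59 on untreated arrays, 9.83, 9.61 and 9.92 at 8 h and 8.88, 8.78 and 8.9 at 24 h, and fell by 0.73 ± 0.09 (limma adjusted p = 0.014). The second BIRC5 cluster, with a mean signal of 7.54, changed by -0.27 ± 0.17 and did not pass (limma adjusted p = 0.38). The difference between the 2 clusters was not tested. With their mean taken, BIRC5 changed by -0.50 and did not pass. INCENP, the scaffold of the complex, had 9.42, 9.37 and 9.47 on untreated arrays, 9.42, 9.36 and 9.51 at 8 h and 8.86, 8.99 and 8.98 at 24 h. Its fall of 0.48 ± 0.07 was the smallest of the 13 (limma adjusted p = 0.022), with standard deviations of 0.07 at 24 h and 0.05 on untreated arrays. The kinase of the complex, AURKB, is not among the 43 genes and fell by 1.34 ± 0.09 (limma adjusted p = 0.0014).

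**Figure D3:**
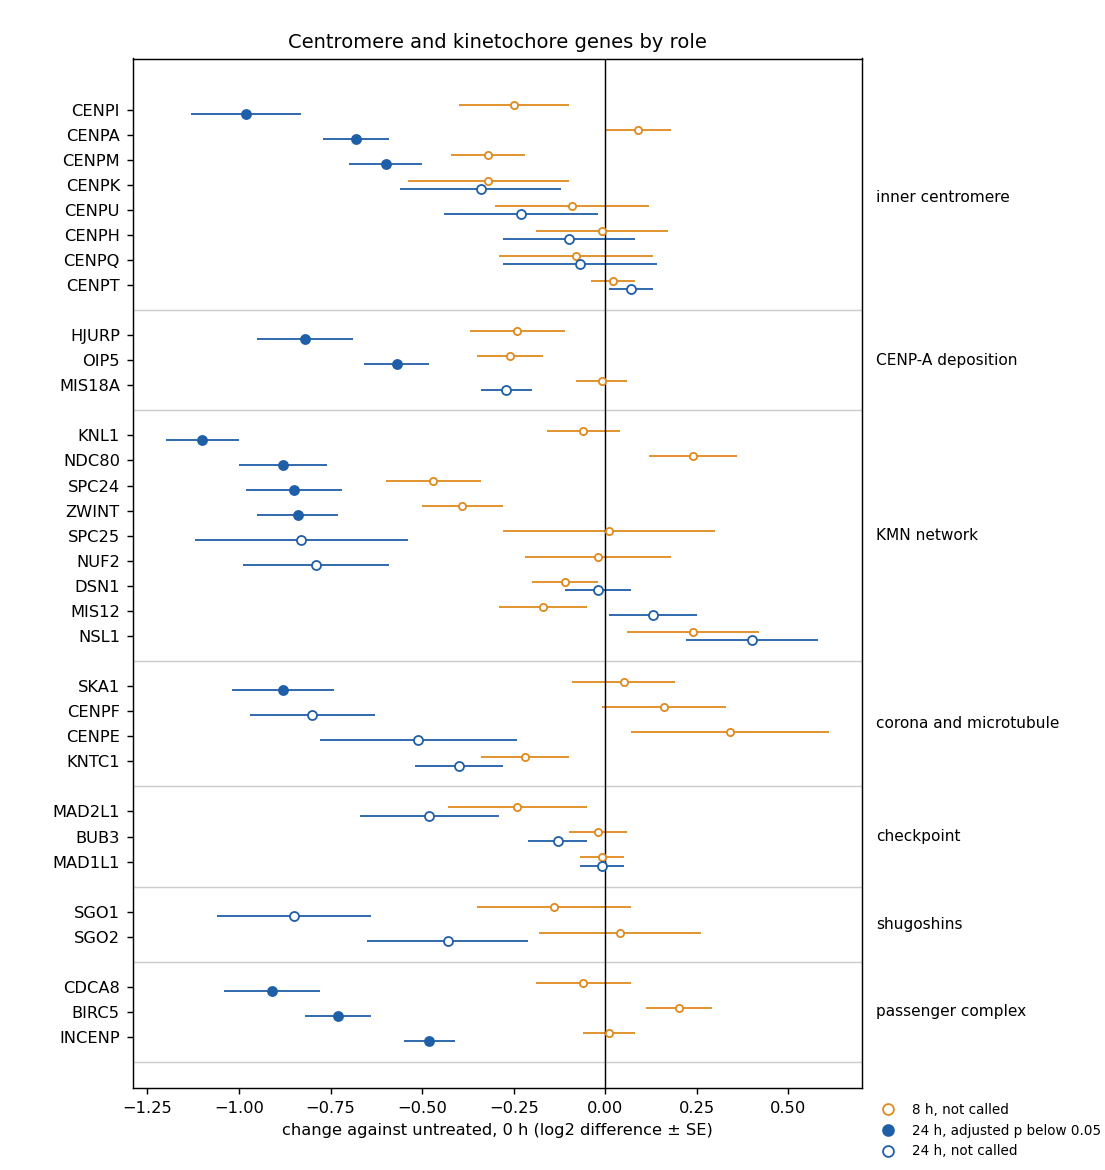
Log2 change against untreated cultures (x axis, ± SE, n = 3 arrays per group) for the 32 genes (y axis) by role, at 8 h (upper point of each pair) and at 24 h (lower point), with filled points for adjusted p below 0.05. Filled points stand for 3 of 8 inner centromere genes, 4 of 9 KMN genes and 3 of 3 passenger genes at 24 h, and no gene was called at 8 h. Without untreated replicate 2, not drawn, the counts at 24 h were 4, 5 and 3, with 314 of all clusters called in either direction. Without untreated replicate 3, also not drawn, KNL1 alone of the 32 genes was called at 24 h.

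Of the 19 genes not called at 24 h, 9 had a 95% interval that excludes a 1.5-fold fall, namely CENPH, CENPQ, CENPT, MIS18A, DSN1, MIS12, NSL1, BUB3 and MAD1L1. After untreated replicate 2 was left out, 8 of the 9 intervals still excluded it, and that of CENPQ did not. The other 10 had intervals that reach it, and their untreated arrays had standard deviations from 0.22 to 0.59. Among the 13 fallen genes that standard deviation ran from 0.04 to 0.30. Calls and intervals both depend on this spread, so these ranges follow in part from how the genes were sorted.

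**Figure D4:**
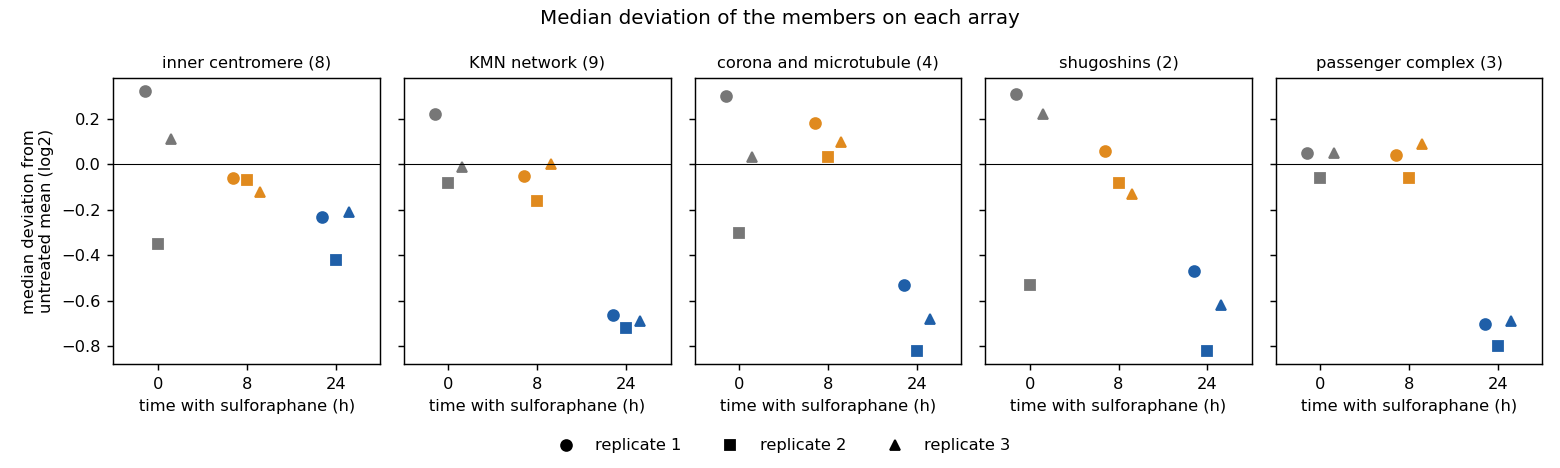
Median log2 deviation from the untreated mean (y axis) on each array at 0, 8 and 24 h (x axis) for the genes of 5 roles (number measured in parentheses), with 1 symbol per replicate. In the KMN and passenger panels the 24 h arrays lie between -0.80 and -0.66, apart from all others. The corona panel also has them apart, between -0.82 and -0.53. Untreated replicate 2 lies among the 24 h arrays in the inner centromere panel, at -0.35, and in the shugoshin panel, at -0.53.

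After 8 h of sulforaphane, 0 of the 32 genes were called (limma), against 0.327% of all clusters called lower, 0.268% called higher and 0.595% in all. The median change was -0.04, or -0.21 without untreated replicate 2. At an unadjusted p below 0.05, 4 genes were lower (CENPM, OIP5, SPC24 and ZWINT) and 1 was higher (BIRC5), and 6.57% of all clusters were lower at that level. In the same 4 genes all 8 h arrays lay below all untreated arrays, an arrangement found in 8.55% of clusters. SPC24 had the most negative value, -0.47 ± 0.13 (adjusted p = 0.14), followed by ZWINT at -0.39 ± 0.11 (adjusted p = 0.15). NDC80, by contrast, was at 0.24 ± 0.12 and CENPE at 0.34 ± 0.27, neither of which passed. Without untreated replicate 2, CENPK alone was called, while the clusters called in either direction went from 131 to 291.

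The comparison of 24 h with 8 h tested directly whether signal differed between the treated times. It called 5 of the 32 genes lower and 0 higher, against 0.227% of all clusters called lower, 0.1% called higher and 0.327% in all. NDC80 fell by 1.12 ± 0.12 (limma adjusted p = 0.014), KNL1 by 1.04 ± 0.10 (adjusted p = 0.0091), BIRC5 by 0.93 ± 0.09 (adjusted p = 0.0081), CENPA by 0.76 ± 0.09 (adjusted p = 0.025) and INCENP by 0.49 ± 0.07 (adjusted p = 0.035). The second BIRC5 cluster changed by -0.32 ± 0.17 (adjusted p = 0.59), and with the mean of the 2 clusters BIRC5 was at -0.62 and did not pass (adjusted p = 0.12). CDCA8 and SKA1 changed by -0.85 ± 0.13 and -0.92 ± 0.14 and missed the threshold (adjusted p = 0.060 and 0.055). For all 13 genes called lower at 24 h against 0 h, the 24 h arrays also lay below all 8 h arrays. This held for 21 of the 32 genes, against 6.4% of clusters, and 19 were lower at an unadjusted p below 0.05, against 3.45%. CENPM, OIP5, SPC24 and ZWINT differed between 24 h and 8 h by -0.27 ± 0.10, -0.30 ± 0.09, -0.38 ± 0.13 and -0.45 ± 0.11, and none of the 4 passed. Dropping untreated replicate 2 raised the number called to 11, and the clusters called in either direction from 72 to 160. No untreated array enters this difference. For the genes added (HJURP, NUF2, CENPF, SKA1, SGO1 and CDCA8) the changes stayed the same. Their standard errors, from a spread pooled over the 3 groups, were smaller, as for NUF2 (0.20 with all arrays, 0.08 without). Dropping untreated replicate 3 or 8 h replicate 2 left 3, dropping 8 h replicate 3 or 24 h replicate 1 or 3 left 1, and dropping 8 h replicate 1 or 24 h replicate 2 left 0. The comparisons share arrays, so their calls are not independent of each other.

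Other kinetochore and centromere genes outside the 43 were read from a list of 26, of which 19 were measured. Of these 5 fell at 24 h against 0 h, 0 rose and 14 did not pass, against 0.791% of all clusters called lower, and the median change was -0.18. Besides AURKB, the 5 were the mitotic kinase PLK1 (-1.40 ± 0.10), the microtubule depolymerase KIF2C (-0.78 ± 0.15), HASPIN (-0.61 ± 0.09) and TRIP13 (-0.97 ± 0.16). HASPIN is the kinase that marks histone H3 for the passenger complex, and TRIP13 is the ATPase that dismantles checkpoint complexes. With untreated replicate 2 dropped, 7 of the 19 were called lower. CENPC, which anchors the inner complex to CENP-A nucleosomes, changed by 0.06, and CENPB, which binds centromeric satellite DNA, by -0.03, and neither passed. At 8 h, 0 of the 19 were called.

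Genes that license replication origins, which act before the kinetochore is built, were set beside them. Of 15 measured licensing genes, 1 fell at 24 h and 1 at 8 h, against 0.791% and 0.327% of all clusters called lower. It was CDC6 in both cases, which fell by 0.74 ± 0.13 at 24 h and fell by 1.03 ± 0.13 at 8 h. The 15 licensing genes had a median change of -0.29 at 24 h and -0.25 at 8 h, where the kinetochore genes had -0.54 and -0.04. Without untreated replicate 2 the licensing genes had -0.42 and -0.38, with 5 called lower at 24 h and 6 at 8 h, and the kinetochore genes had -0.69 and -0.21. The difference between the lists was not tested. The proliferation markers MKI67 and TOP2A fell at 24 h by 1.29 ± 0.10 and 0.98 ± 0.12, and at 8 h they changed by -0.10 and 0.04. These markers moved with the kinetochore genes at 24 h, and their part in the result was not tested.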

How the data were processed

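The 9 arrays were used, 3 per group, grouped by the labels. Per the labels, the authors summarised Human Exon 1.0 ST arrays at core-gene level with RMA and sketch-quantile normalisation in Affymetrix Expression Console, and the deposited values are log2 signals. The sources used here do not give the software version, annotation release or genome build. Clusters were named from the platform's gene table: 14432 of 22011 had 1 symbol, 2408 had several and 5171 had none. All clusters were fitted as deposited with limma 3.58.1 in R 4.3.3, with 1 mean per group over all 9 arrays and two-sided eBayes tests. P-values were adjusted by Benjamini-Hochberg over all clusters within a comparison and called below 0.05. No filter on low values was applied. Intervals are 95%. Arrays give signal and not counts, so their number limits the precision, and p-values measure the spread between cultures of 1 line.

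The genes, role groups and lists were chosen with earlier results of these data known, so lists are described and not tested. All 32 measured genes are named, and genes of other lists where called; CENPB and CENPC were named after their values were seen. The labels do not say whether a replicate number pairs arrays, and the main fit used no pairing. Deviations from group means were correlated above 0.1 in 2 of 9 pairs with the same number (range -0.14 to 0.39). Both joined 24 h and untreated arrays, with 0.39 for replicate 1 and 0.38 for replicate 2, against 0.06 for replicate 3. The highest correlation between arrays of other numbers was 0.13. The fitting code was first tested on simulated data. Alternatives were a replicate block, quantile normalisation, centring on medians, leaving out the lowest 25% of clusters, trended or robust priors, array weights, fits of the 2 groups compared, the mean of a symbol's clusters, a threshold of 0.01, a 1.5-fold minimum and leaving out each array. Gene-by-gene array weights were added after seeing the data.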

Additional observations from a re-analysis of the deposited data

Results flagged for a closer look

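The effects of 8 h and 24 h, each against 0 h, differed by the direct test between the treated times for 5 genes. The log2 difference of 24 h against 8 h was -1.12 ± 0.12 (SE) for NDC80, -1.04 ± 0.10 for KNL1, -0.93 ± 0.09 for BIRC5, -0.76 ± 0.09 for CENPA and -0.49 ± 0.07 for INCENP (limma adjusted p from 0.0081 to 0.035). In each, all 3 arrays at 24 h lay below all 3 at 8 h. For CENPM, OIP5, SPC24 and ZWINT, whose 8 h arrays lay below the untreated ones, no such difference passed. These 4 of the 32 genes were not called at 8 h either, and 8.55% of all clusters had that arrangement. BIRC5 lost its call when its 2 clusters were averaged (-0.62, adjusted p = 0.12). INCENP missed the threshold in 12 of 21 alternatives, among them the replicate block (adjusted p = 0.069). CENPA missed it in 8 of the 21, NDC80 in 6, KNL1 in 5 and BIRC5 in 4. With each of the 9 arrays dropped in turn, BIRC5 passed in 7 fits, NDC80 and KNL1 in 4 each, CENPA in 2 and INCENP in 1.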

How the results depend on the processing

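With 3 arrays per group, calls near the threshold depended on single arrays. The 13 genes called lower at 24 h against 0 h became 25 with default array weights, a fit that stopped before it converged and called 9010 clusters, 22 with gene-by-gene weights, 1 in a fit of only the 2 groups compared and 1 at a threshold of 0.01. Leaving out 1 array gave 1 to 16. The 0 genes lower at 8 h became 10 with default weights, which also called 3 genes higher and 9603 of all clusters in either direction. Gene-by-gene weights gave 4 genes lower, with 1703 clusters called, against 131 in the main fit. Without 1 array the number was 0 to 1. The 5 genes lower at 24 h against 8 h became 10 with quantile normalisation, 8 with centring on medians, 20 and 18 with the 2 kinds of weights, 2 at a threshold of 0.01, and 0 to 11 without 1 array. The 2 kinds of weights called 1516 and 1325 clusters in this comparison, against 72 in the main fit. Some of these fits use fewer arrays or a stricter threshold. The 11 at 24 h against 8 h, without untreated replicate 2, came with unchanged log2 changes and smaller standard errors for the added genes. Other causes of these differences were not tested.

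The median change at 24 h against 0 h was -0.54, and -0.70 and -0.69 with the 2 kinds of weights; without 1 array it was -0.69 to -0.49. At 8 h it was -0.21 to 0.02 without 1 array, and at 24 h against 8 h -0.47 to -0.30. With the replicate block 11 of the 13 genes passed (not CENPI and OIP5), and 5 genes were called at 24 h against 8 h, 4 of them among those of the fit without the block; a shared number is no stated pairing. None of the 18 single results changed sign under any of the 21 alternatives, and KNL1 at 24 h against 0 h missed the threshold only in the fit of 2 groups.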

Other observations

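A further 18 clusters were annotated with a listed gene together with at least 1 other symbol. At 24 h against 0 h, 2 of them were called lower and 0 higher (limma), with log2 changes from -0.89 to 0.59 and a median of -0.06. They are not named, because their signal cannot be assigned to a gene.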
